A study of Mus musculus with 9 samples.

Results

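RNA levels of beige adipocytes from 129 mice were set against those from B6 mice, gene by gene, with attention to transporters, receptors, secreted proteins, adhesion molecules and transcription factors. The comparison used 6 of the 9 libraries of the study, 3 from 129 and 3 from B6, and left out the 3 F1 libraries. Inguinal fat, a subcutaneous depot, gave the stromal vascular cells, which were turned into adipocytes in culture and harvested on day 7. The B6 cells came from C57BL/6J mice and the 129 cells from 129X1/SvJ mice, and the series describes B6 as prone to obesity and 129 as resistant to it. Both strains were treated alike. From confluence on, the medium held serum (10%, fetal bovine), the PPARγ agonist rosiglitazone (1 µM), the thyroid hormone T3 (1 nM) and insulin (850 nM). Dexamethasone (1 µM), indomethacin (125 nM) and isobutylmethylxanthine (0.5 mM) were present for the first 48 hours only. It is not stated whether the libraries of a strain were separate animals or cultures, so p-values describe the spread between these libraries only.

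Beige adipocytes are thermogenic fat cells that arise in subcutaneous depots from stromal precursors, and they burn fuel as heat through the uncoupling protein UCP1. What such a cell imports, senses and secretes is set by membrane carriers and channels, by receptors for hormones and cytokines, and by secreted ligands, inhibitors and matrix proteins. Transcription factors of the homeobox, forkhead and basic helix-loop-helix families set the identity of fat precursors and the adipogenic programme.

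Depth was 19130022 to 28473083 assigned reads per library. Levels are in RPKM, reads per kilobase of exon and per 1000000 assigned reads. Of 24013 genes, the 11451 that reached 1 RPKM in 3 or more of the 6 libraries were tested. Differences are given as log2 fold changes of 129 minus B6 on log2(RPKM + 1), which understates changes of genes near or below 1 RPKM, with limma standard errors (SE) and Benjamini-Hochberg adjusted p-values. At an adjusted p under 0.05, 36.3% of the genes tested passed, 15.4% higher and 21.0% lower in 129. Median-of-ratios rescaling turned the 1763 higher and 2399 lower genes into 2140 higher and 1957 lower. It moved the median log2 fold change of all genes from -0.03 to 0.00, so small differences have no firm direction. Changes with an absolute log2 value of at least 1 were found in 2.43% of the genes, 148 higher and 130 lower. The 2 strains did not overlap in 50.0% of the genes. No overlap was also a condition for naming most rises and falls below, so it is no separate finding about those genes. For a single gene, 3 against 3 libraries allow no exact permutation p below 0.1.

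The cultures expressed their labelled type. Summed over 10 adipocyte markers, the level was 33220 to 38600 RPKM in B6 libraries and 39650 to 41640 in 129, and all 10 were tested. Cfd and Cidec were higher in 129, Adipoq (-0.23) and Retn (-1.07) lower, and the other 6 did not pass. Among those 6 were Fabp4 and Scd1, which made up most of the sum. Summed levels of 7 brown and beige markers were 383 to 401 RPKM in B6 and 438 to 473 in 129, with members that went opposite ways. Ucp1 (2.55) and Cidea (0.79) were higher, Cox8b (-0.88) and Ppargc1a (-0.59) lower, and Cox7a1 and Elovl3, which made up most of the sum, did not pass, nor did Dio2. Stromal markers were present in both strains. Over 8 fibroblast and progenitor markers the sum was 1505 to 1720 RPKM in B6 and 2110 to 2261 in 129. Of the 7 tested, Pdgfra, Cd34, Dcn and Col1a1 were higher in 129. In RPKM the largest rises were those of Col1a1 (means of 776 in B6 and 1156 in 129) and Dcn (208 and 418). Ly6a had 362 to 498 RPKM in B6 and 334 to 346 in 129 and did not pass (-0.26, adjusted p = 0.106). Thy1 and Pi16 did not pass either. Macrophage markers summed to 42.1 to 53.4 RPKM in B6 and 19.8 to 45.1 in 129. Of the 7 tested, C1qa and C1qb were lower. The others did not pass, among them Lyz2 (adjusted p = 0.0889), which made up most of the sum. Of 6 smooth muscle markers 4 were lower in 129, from B6 means of 1.45 to 4.60 RPKM. The most abundant, Acta2 and Tagln, did not pass. The sums overlapped, at 130 to 145 RPKM in B6 and 129 to 138 in 129. Of 8 endothelial markers the 2 tested, Pecam1 (-0.58) and Tek (-0.50), were lower, with sums of 5.79 to 7.06 RPKM in B6 and 3.12 to 4.03 in 129. Of 6 mesothelial markers the 1 tested, Krt19, was higher (0.88). Sums were 7.92 to 9.10 RPKM in B6 and 15.8 to 18.1 in 129, most of them Krt19. The other mesothelial markers were below 1 RPKM in every library. Lymphocyte, epithelial and erythroid markers were near 0 in both strains. In such bulk samples fewer cells of a type and less RNA per cell cannot be told apart, and the part of these cells in the results below was not tested. B6 replicate 1 stood apart in interferon-inducible genes. In that library Ifit1, an interferon-induced RNA-binding protein, had 28.3 RPKM, against 5.21 and 5.55 in the other B6 libraries and 2.38 to 2.66 in 129.

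Across the 7 roles examined, the share of tested genes that differed was lowest in 249 transcription factors and cofactors, at 28.5%. It was highest in 61 enzymes of aldehyde, carbonyl and drug metabolism, at 72.1%, beside 36.3% of all genes tested. The shares were 48.3% for 265 transporters, 56.7% for 252 receptors and guidance genes, 59.9% for 207 secreted proteins, 51.9% for 77 adhesion molecules and 51.2% for 84 regulators of signalling. Median log2 fold changes were close to 0 in each role, from -0.03 for adhesion molecules to 0.04 for secreted proteins. The median absolute change was 0.38 for the enzymes, 0.27 for secreted proteins and 0.11 for transcription factors and cofactors, beside 0.12 for all genes tested. Members of each role thus went both ways. The set of transcription factors holds 77 coactivators and corepressors, of which 16.9% differed, while its other lists ran from 22.9% to 42.3%. It leaves out nuclear receptors, which count as receptors, and genes of the Hox clusters, and zinc finger factors had no list. The secreted proteins take in cell surface proteases and whole families of protease inhibitors, secreted or not. Precision was alike, with median standard errors of 0.058 to 0.069 per role against 0.058 for all genes.

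**Figure D1:**
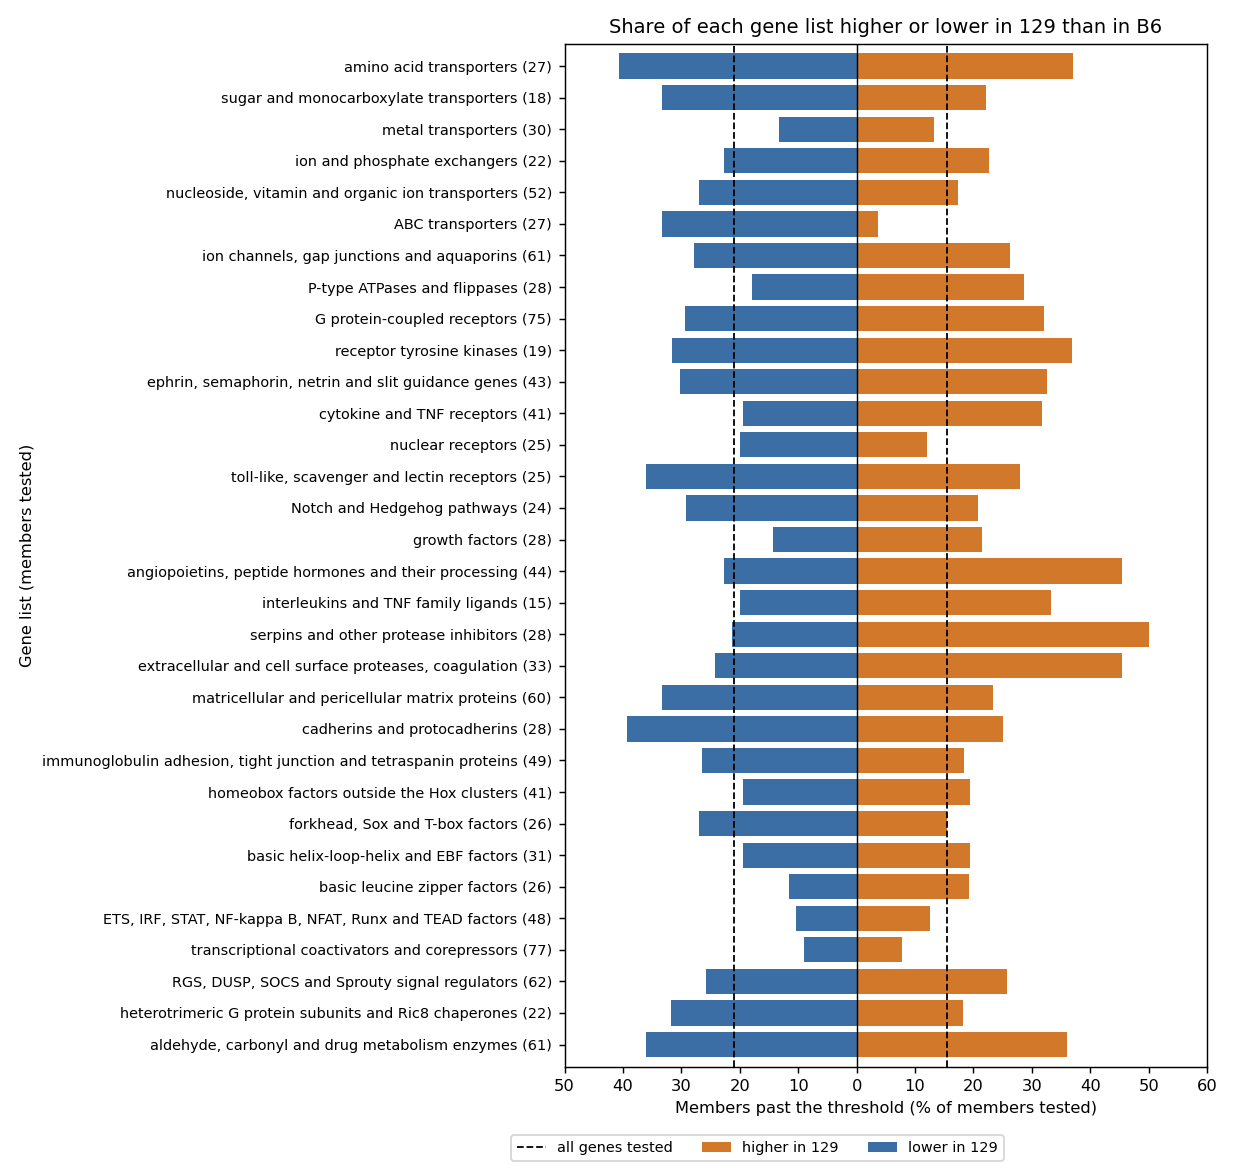
Share of the tested members of each of 32 gene lists that were higher (right, orange) or lower (left, blue) in 129 than in B6, as percent of members tested, whose number stands in brackets. Dashed lines mark the shares among all genes tested, 15.4% higher and 21.0% lower; serpins and other protease inhibitors reach 50.0% higher, and coactivators and corepressors lie under both lines.

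Transporters carry nutrients, ions and lipids across membranes, and 57 of the 265 tested were higher in 129 and 71 lower. Amino acid carriers included the most abundant changed transporter of the lists, Slc1a5, which exchanges glutamine and other neutral amino acids. Slc1a5 had 796, 687 and 844 RPKM in the B6 libraries and 326, 359 and 342 in 129. Each B6 library lay far above each 129 library, and the log2 fold change was -1.17 (SE 0.08, adjusted p = 2.07e-05). Slc7a10, an exchanger of small neutral amino acids and a marker of white adipocytes, fell by 0.87, the glutamate carrier Slc1a3 by 0.53 and the proton-coupled carrier Slc36a2, abundant in brown fat, by 0.34. Slc38a6, a carrier of the glutamine family, rose from 8.30 to 9.09 RPKM in B6 to 16.5 to 16.9 in 129 (0.87), and the glycine transporter Slc6a9 rose by 0.58. In all 10 of the 27 amino acid carriers tested were higher and 11 lower, but only 5, 5 and 4 were higher without B6 replicate 3, 129 replicate 1 and 129 replicate 2.

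Among sugar and monocarboxylate carriers 4 of 18 were higher and 6 lower. Slc2a4, the insulin-responsive glucose transporter GLUT4, had 131, 115 and 135 RPKM in B6 and 94.6, 101 and 101 in 129 (-0.36, adjusted p = 0.003), while Slc2a1, the basal glucose transporter GLUT1, was higher in 129 (0.34, adjusted p = 0.0117). The lactate exporter Slc16a3 (0.53) and the creatine carrier Slc16a12 (1.00) rose. The endoplasmic reticulum glucose-6-phosphate carrier Slc37a4 fell by 0.86, and the sulfated steroid carrier Slc10a6 rose by 0.69.

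Of 30 metal transporters 4 were higher and 4 lower, or 26.7%, beside 36.3% of all genes tested. Iron was not a list of its own, and the genes below are given singly. Steap3, an endosomal ferrireductase, had 19.4, 17.8 and 17.8 RPKM in B6 and 40.03, 39.7 and 38.6 in 129. Its relative Steap4, an iron and copper reductase that is abundant in adipocytes, had 116, 130 and 113 RPKM in B6 and 239, 261 and 245 in 129. In both genes every 129 library was above every B6 library, with log2 fold changes of 1.07 (SE 0.04) and 1.04 (SE 0.06). The transferrin receptor Tfrc went the other way, with 51.9, 48.7 and 53.6 RPKM in B6 and 35.6, 32.4 and 34.9 in 129 (-0.57, adjusted p = 9.33e-05). The related receptor Tfr2 fell by 0.61, from levels near 1 RPKM. Trf, transferrin itself, which is no member of the list and was chosen after its values were seen, had 152, 138 and 149 RPKM in B6 and 42.1, 40.99 and 38.5 in 129 (-1.83, SE 0.05). The number of metal transporters lower was 2 without B6 replicate 1, B6 replicate 3, 129 replicate 2 or 129 replicate 3.

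Channels, gap junction proteins and aquaporins held the listed transporter with the largest rise on log2(RPKM + 1), Aqp11. It is an aquaporin of intracellular membranes that passes water and glycerol. The mitochondrial carrier Ucp1 (2.55) is not in these lists. Aqp11 had 3.30, 2.85 and 2.92 RPKM in B6 and 17.9, 19.1 and 19.6 in 129. The strains were far apart, with a log2 fold change of 2.30 (SE 0.06, adjusted p = 1.01e-07). Gja1, the gap junction protein connexin 43, had 30.01, 29.9 and 31.4 RPKM in B6 and 88.2, 81.4 and 78.4 in 129, a rise of 1.41 (SE 0.05). Lrrc8e, a subunit of volume-regulated anion channels, and the potassium channel Kcnj15 rose by 1.12 and 1.11 from levels near 1 RPKM. The water channel Aqp1 fell by 0.82 and the anoctamin Ano3 by 0.97. Of the 61 tested 16 were higher and 17 lower.

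The 250 bases upstream of the start of Aqp11 are shown because Aqp11 had the largest rise of the listed transporters. Those of Vtn, the matrix protein vitronectin, are shown because it is among the largest rises of the listed secreted proteins. Both are from RefSeq on GRCm38.p6, a build other than the mm9 of the deposited coordinates, and give the reference strain, not 129. Capitals mark CG dinucleotides. The Aqp11 window is chr7:97738248-97738497 on the minus strand and the Vtn window chr11:78498870-78499119 on the plus strand.
Aqp11: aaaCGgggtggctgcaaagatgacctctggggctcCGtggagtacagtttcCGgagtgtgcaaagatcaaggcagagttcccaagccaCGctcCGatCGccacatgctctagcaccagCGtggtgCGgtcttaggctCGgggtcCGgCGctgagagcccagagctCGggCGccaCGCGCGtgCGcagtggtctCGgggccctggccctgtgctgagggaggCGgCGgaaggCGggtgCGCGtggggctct
Vtn: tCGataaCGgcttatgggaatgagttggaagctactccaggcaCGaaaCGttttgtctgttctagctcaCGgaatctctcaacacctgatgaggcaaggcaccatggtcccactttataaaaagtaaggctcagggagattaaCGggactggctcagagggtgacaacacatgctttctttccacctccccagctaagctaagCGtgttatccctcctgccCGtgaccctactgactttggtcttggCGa
The Aqp11 window holds 23 CG dinucleotides and the Vtn window 9, beside a median of 6 over 32851 windows of the same length. As many as in Aqp11 are found in 13.3% of windows, and as many as in Vtn in 40.3%. Searched on both strands, the Aqp11 window holds the hormone receptor motif AGGTCA, which is found in 14.0% of windows, and the Vtn window does not. The nuclear factor I motif TTGGCA (12.3% of windows) and the cAMP response element TGACGTCA (1.55%) are in neither. These matches describe the letters only.

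P-type ATPases pump ions or flip phospholipids between membrane leaflets, and 8 of 28 were higher and 5 lower. Atp10d, a phospholipid flippase, had 3.73, 3.74 and 3.29 RPKM in B6 and 20.5, 21.6 and 21.99 in 129, a rise of 2.29 (SE 0.05, adjusted p = 7.28e-08). Its relative Atp10a fell by 0.95, and Atp8b1, another flippase, rose by 1.12. No library of one strain reached the other in any of these 3 genes. The calcium pump Atp2b4 fell by 0.88.

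ABC transporters use ATP to export lipids and other substrates. Of 27 tested 1 was higher in 129 and 9 lower, or 37.0%, beside 36.3% of all genes tested. Without 129 replicate 1, 2 were higher. Abcg1, which exports cholesterol to lipoproteins, had 12.04, 14.3 and 12.2 RPKM in B6 and 4.73, 5.36 and 5.59 in 129, with no overlap and a log2 fold change of -1.15 (SE 0.08, adjusted p = 1.91e-05). The peroxisomal fatty acid importer Abcd3 fell by 0.45. The neighbouring members of the A family differed from each other: Abca6 fell from 1.28 to 1.32 RPKM to 0.177 to 0.246, and Abca5 was the single member that rose, by 0.77.

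**Figure D2:**
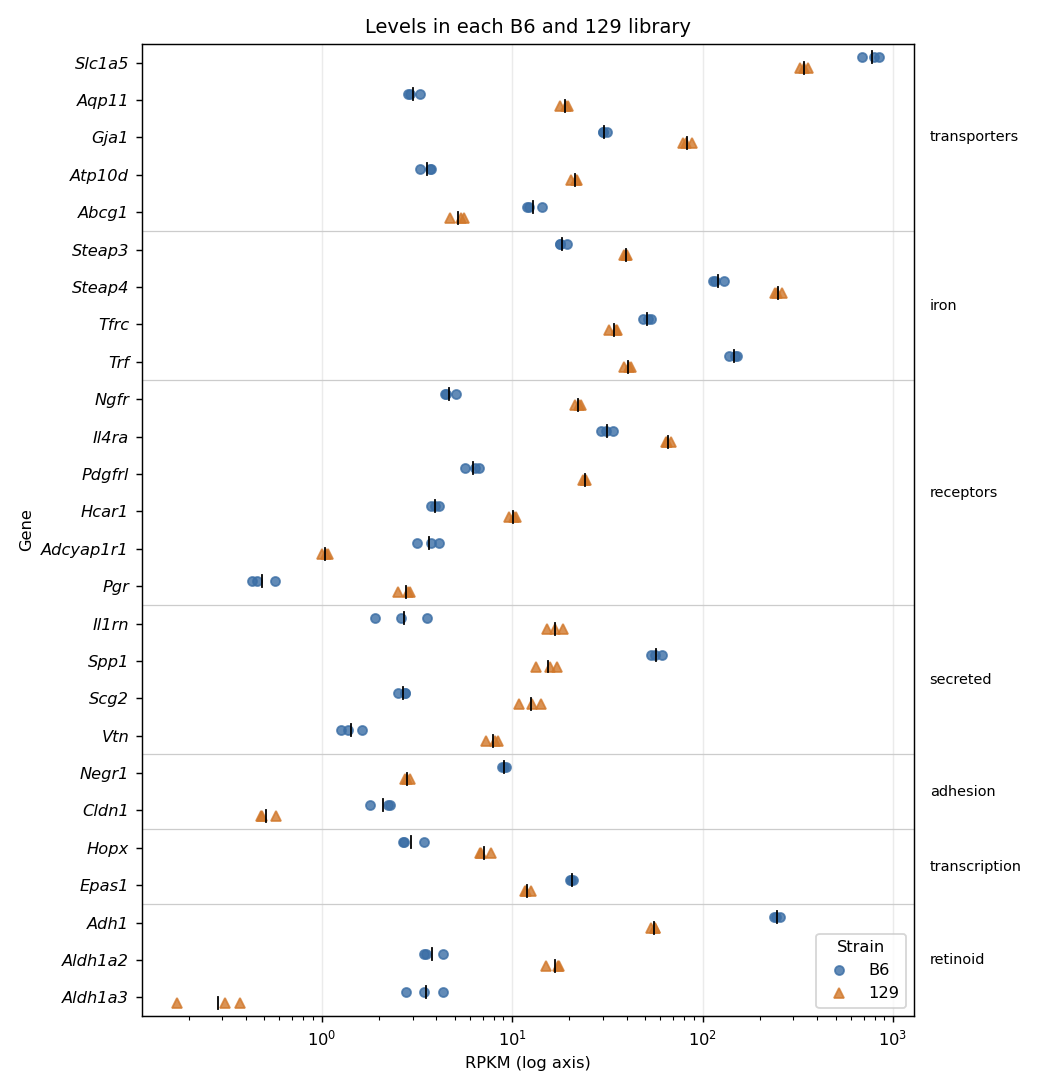
RPKM (log axis) of 26 genes in each of 3 B6 (circles) and 3 129 (triangles) libraries, grouped by role, with black ticks at the means. In every gene shown the libraries of one strain lie wholly on one side of the other. Most rises and falls were named on that condition. Aqp11 has 17.9 to 19.6 RPKM in 129 against 2.85 to 3.30 in B6, and Aldh1a3 0.174 to 0.371 against 2.76 to 4.34.

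Among receptors and guidance genes 73 of 252 were higher in 129 and 70 lower. G protein-coupled receptors sense hormones, metabolites and peptides, and 24 of 75 were higher and 22 lower. Hcar1, the lactate receptor through which adipocytes restrain lipolysis, had 4.14, 3.76 and 3.92 RPKM in B6 and 9.58, 10.5 and 10.2 in 129 (1.17, SE 0.05, adjusted p = 2.22e-06). Every 129 library was above every B6 library. Mc5r, a melanocortin receptor, had 17.4, 15.9 and 19.7 RPKM in B6 and 5.21, 5.44 and 6.13 in 129, a fall of 1.50 (SE 0.08). Adcyap1r1, the receptor for the peptide PACAP, fell by 1.19 and the serotonin receptor Htr2a by 0.92. Npy1r, a receptor for neuropeptide Y, and Lgr6, a receptor for R-spondins, rose from under 0.5 RPKM in each B6 library to 1.54 to 1.86 and 1.14 to 1.34 in 129. Gpr165, an orphan receptor, had 0.244, 0.229 and 0.279 RPKM in B6 and 2.30, 2.60 and 2.14 in 129 (1.42, SE 0.07). The adhesion receptor Gpr133 rose by 0.85 from 30.4 to 37.6 RPKM in B6, while the Wnt receptor Fzd4 stood at 39.8 to 41.3 RPKM in B6 and 39.6 to 40.9 in 129 and did not pass (-0.01, adjusted p = 0.883).

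Receptor tyrosine kinases bind growth factors, and 7 of 19 were higher and 6 lower. Pdgfra, the PDGF receptor that marks adipocyte progenitors, had 48.4, 40.2 and 42.9 RPKM in B6 and 87.0, 79.3 and 77.4 in 129 (0.88, SE 0.07), beside the higher sum of stromal markers given above. Pdgfrl, a receptor-like protein without a kinase, had 6.41, 5.63 and 6.73 RPKM in B6 and 23.6, 24.5 and 24.2 in 129 (1.79, SE 0.06). Neither gene overlapped between strains. The epidermal growth factor receptor Egfr rose by 0.61 and the neurotrophin receptor Ntrk2 by 0.66. Mst1r, the receptor for macrophage-stimulating protein, fell by 0.89 and the Wnt co-receptor Ptk7 by 0.79. The collagen receptor Ddr2, among the most abundant of this class, did not pass (0.05, adjusted p = 0.574).

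Ngfr, the p75 neurotrophin receptor of the TNF receptor family, had the largest rise among the listed receptors on log2(RPKM + 1). As a ratio of mean RPKM, its rise was 4.76-fold. That was below the 9.36-fold rise of Gpr165 and the rises of other listed receptors near or below 1 RPKM. Ngfr had 5.09, 4.49 and 4.45 RPKM in B6 and 23.1, 21.3 and 22.5 in 129. The strains were well apart, with a log2 fold change of 2.04 (SE 0.06, adjusted p = 1.61e-07). Il4ra, the chain shared by the receptors for interleukins 4 and 13, had 33.8, 31.2 and 29.2 RPKM in B6 and 68.2, 64.6 and 64.2 in 129 (1.04, SE 0.06). The growth hormone receptor Ghr, abundant at 135 to 141 RPKM in B6, rose by 0.49, and Tnfrsf12a, the receptor for TWEAK, by 0.56. The death receptor Fas fell by 0.52 and Tnfrsf18 by 0.78. Of 41 cytokine and TNF receptors 13 were higher and 8 lower, while Tnfrsf1a, the main TNF receptor, stood at 106 to 110 RPKM in B6 and 108 to 111 in 129 and did not pass (adjusted p = 0.695).

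Nuclear receptors are transcription factors switched by lipids and steroids. Of 25 tested 3 were higher and 5 lower, or 32.0%, beside 36.3% of all genes tested. Without B6 replicate 2, and likewise without 129 replicate 1, 5 were higher. Pgr, the progesterone receptor, had 0.571, 0.455 and 0.431 RPKM in B6 and 2.84, 2.92 and 2.52 in 129 (1.34, SE 0.07, adjusted p = 6.3e-06), and Esr1, oestrogen receptor alpha, rose by 0.72. Both steroid receptors were higher in each 129 library than in any B6 library. The vitamin D receptor Vdr fell by 0.55, the orphan receptor Nr4a2 by 0.80, and Nr1h3, the liver X receptor alpha that senses oxysterols, by 0.34 from 53.1 to 60.2 RPKM in B6.

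Among guidance genes 14 of 43 were higher and 13 lower. Ntn4, a netrin of basement membranes, had 2.49, 2.56 and 2.96 RPKM in B6 and 0.244, 0.277 and 0.350 in 129, a fall of 1.51 (SE 0.08, adjusted p = 4.07e-06). The class 3 semaphorins split, with Sema3f (-1.05) and Sema3g (-0.78) lower and Sema3c, the most abundant of these 3, higher (0.54). Of the toll-like, scavenger and lectin receptors 7 of 25 were higher and 9 lower, and without single libraries other than B6 replicate 2 the lower count was 4 or 5. Clec3b, the secreted lectin tetranectin, had 62.2, 43.95 and 67.04 RPKM in B6 and 139, 153 and 161 in 129 (1.39, SE 0.14). Olr1, the scavenger receptor for oxidised lipoprotein, rose by 0.91, and Scara3 fell by 0.69 and Stab1 by 0.70. In the Notch and Hedgehog pathways, the Hedgehog co-receptor Boc rose by 0.74 and the Notch target Hes1 by 0.51, while Notch2 fell by 0.51 and the Notch-modifying glycosyltransferase Mfng by 0.78.

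The role of secreted proteins had 73 of 207 tested genes higher in 129 and 51 lower. These counts take in cell surface proteases and members of the listed families that may stay inside cells. Ligands of the cytokine families showed changes in both directions. Il1rn, the antagonist of the interleukin 1 receptor, had 2.62, 3.56 and 1.90 RPKM in B6 and 18.4, 16.7 and 15.3 in 129 (2.29, SE 0.15, adjusted p = 1.53e-05). Spp1, the cytokine and matrix protein osteopontin, had 61, 56.4 and 53.7 RPKM in B6 and 17.2, 15.7 and 13.4 in 129 (-1.82, SE 0.09, adjusted p = 2.88e-06). Neither gene overlapped between strains. The alarmin Il33 rose by 0.84 and Tnfsf13b, the B cell factor BAFF, by 0.83, and Il34, a ligand of the CSF1 receptor, fell by 0.69. Of 15 tested 5 were higher and 3 lower, beside macrophage marker sums that were not higher in 129.

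Growth factors gave 6 higher and 4 lower of 28, or 35.7%, beside 36.3% of all genes tested. Nrg4, a neuregulin that brown fat secretes, had 6.67, 5.69 and 6.36 RPKM in B6 and 3.71, 3.57 and 3.54 in 129, a fall of 0.65 (SE 0.06, adjusted p = 0.000101). Figf, vascular endothelial growth factor D, fell by 0.43 from 187 to 205 RPKM in B6. Gas6, the ligand of the TAM receptor kinases, rose by 0.37 from 409 to 423 RPKM in B6, and Pdgfd rose by 0.58.

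Peptide hormones, angiopoietins and their processing enzymes had 20 of 44 members higher and 10 lower. Scg2, the secretory granule protein secretogranin 2, had 2.53, 2.74 and 2.75 RPKM in B6 and 14.2, 10.9 and 12.7 in 129, a rise of 1.88 (SE 0.08, adjusted p = 2.22e-06). Nucb2, the precursor of nesfatin 1, rose by 1.24 from 11.2 to 13.03 RPKM in B6, Adm2 by 0.90 and Fndc5, the precursor of irisin, by 0.89. All 4 were higher in each 129 library than in any B6 library. Angptl4, an inhibitor of lipoprotein lipase, rose by 0.32 from 252 to 262 RPKM. Angpt1, the ligand of the Tie2 receptor, fell by 0.56. Dbi, the acyl-CoA binding protein, was the most abundant member at 1820 to 2030 RPKM in B6 and 1819 to 2019 in 129 and did not pass (adjusted p = 0.867).

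Protease inhibitors had 14 of 28 members higher and 6 lower, and 9 higher without B6 replicate 3. Pi15, a secreted inhibitor of trypsin, had 12.3, 12.2 and 10.9 RPKM in B6 and 31.6, 29.95 and 28.5 in 129 (1.27, SE 0.06). Serpine2, protease nexin 1, had 76.3, 65.4 and 75.3 RPKM in B6 and 33.5, 32.9 and 33.6 in 129 (-1.09, SE 0.06). Both genes kept the strains apart. Serpina3c fell by 1.30 while its paralog Serpina3m rose by 1.01, and Serpinb6b and Serpinb8 rose by 1.20 and 1.04. The Serpina3 and Serpinb6 genes have close copies, so how reads were shared among them is uncertain.

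Among extracellular and cell surface proteases 15 of 33 were higher and 8 lower, or 5 lower without B6 replicate 1. Folh1, a glutamate carboxypeptidase, had 1.33, 1.53 and 1.57 RPKM in B6 and 6.86, 5.97 and 6.05 in 129 (1.56, SE 0.07). Fap, the fibroblast activation protein, rose by 1.22, the aminopeptidase Anpep by 1.14 and the gamma-glutamyl transferase Ggt5 by 0.75. The sum of stromal markers was also higher in 129. Ace, the angiotensin-converting enzyme, had 39.1, 34.6 and 38.7 RPKM in B6 and 17.9, 19.5 and 18.03 in 129, a fall of 0.98 (SE 0.06), and Trhde, the peptidase of thyrotropin-releasing hormone, fell by 1.02. F3, the coagulation starter tissue factor, rose by 0.41 from 85.2 to 93.3 RPKM in B6.

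Matricellular and pericellular matrix proteins had 14 of 60 members higher and 20 lower, or 13 lower without 129 replicate 3. Vtn, the adhesive plasma and matrix protein vitronectin whose upstream window is printed above, had 1.63, 1.26 and 1.38 RPKM in B6 and 8.38, 7.33 and 8.17 in 129 (1.89, SE 0.07, adjusted p = 1.1e-06). No B6 library came near the 129 values. Sparc, a collagen-binding protein of high abundance, rose by 0.38 from 1439 to 1594 RPKM, Abi3bp by 0.76 and Ltbp4, which tethers latent TGF-beta, by 0.71. Nid2, a basement membrane nidogen, fell by 0.65, the heparan sulfate proteoglycan Sdc2 by 0.67, Olfml3 by 0.68 and Cspg4, the NG2 proteoglycan of pericytes, by 0.60. Lgals1, galectin 1, stood at 1143 to 1231 RPKM in B6 and 1103 to 1205 in 129 and did not pass (adjusted p = 0.674).

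**Figure D3:**
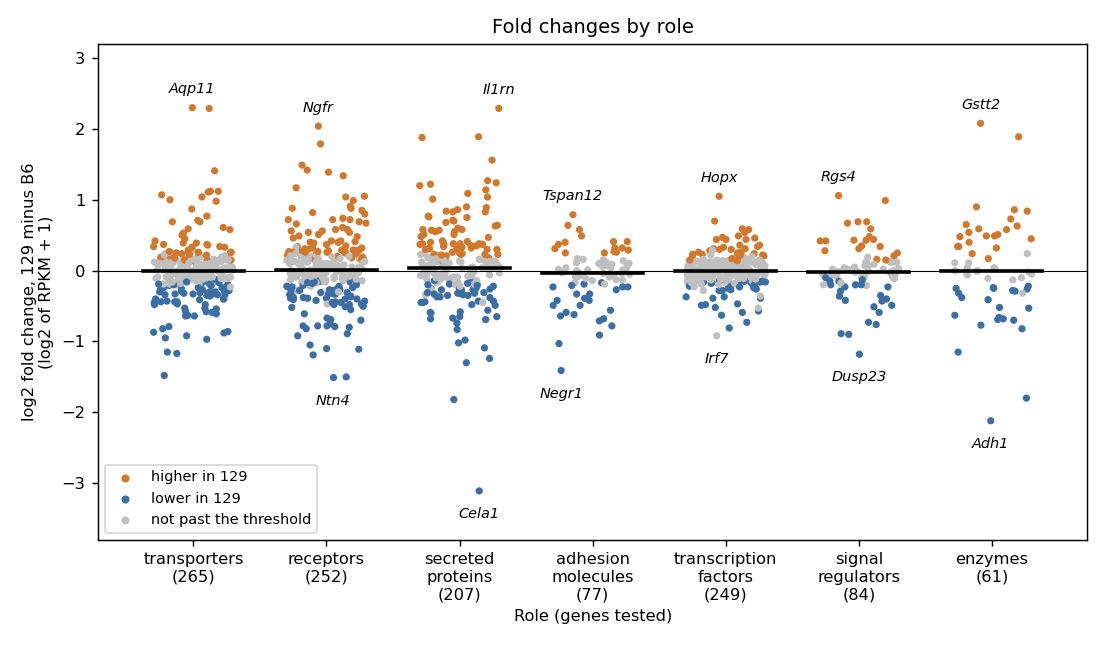
Log2 fold change (129 minus B6) of each tested gene in 7 roles, with the number of genes in brackets; orange and blue points passed the threshold, grey points did not, and black lines are medians. Some of the outermost genes are named, the medians lie between -0.03 and 0.04, and the outermost genes run from Cela1 at -3.11 to Aqp11 at 2.30; the sideways position of points carries no meaning.

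Adhesion molecules had 16 of 77 members higher and 24 lower. Negr1, a neuronal growth regulator of the immunoglobulin family whose locus is associated with body weight, had 8.90, 9.10 and 9.28 RPKM in B6 and 2.80, 2.73 and 2.91 in 129. The B6 libraries were all above the 129 libraries, by a log2 fold change of -1.41 (SE 0.05, adjusted p = 3.83e-07). Cldn1, a tight junction claudin, fell by 1.03, the leukocyte adhesion receptor Icam1 by 0.91, Mcam by 0.68 and Cdh13, a receptor for adiponectin, by 0.64. The endothelial markers tested and some, not all, smooth muscle markers were also lower, and their part was not tested. Ctnna1, alpha-catenin, had 130, 120 and 135 RPKM in B6 and 85.4, 79.9 and 83.4 in 129 (-0.62), while its partner Ctnnb1, beta-catenin, did not pass (-0.03, adjusted p = 0.621). The tetraspanin Tspan12 rose by 0.79 from 48.8 to 58.0 RPKM in B6, and the mesenchymal cadherin Cdh11 by 0.58. Of 28 cadherins, protocadherins and catenins 7 were higher and 11 lower, or 7 lower without B6 replicate 3.

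Transcription factors and cofactors had 35 of 249 members higher and 36 lower. The count of lower members was 22 without B6 replicate 1 and 23 without 129 replicate 1 or 129 replicate 3. Nuclear receptors, counted among receptors, and genes of the Hox clusters are not in this set, and zinc finger factors had no list. A single member of the set had a called change of at least 1, Hopx, an atypical homeodomain protein that does not bind DNA. Outside the set, Pgr (1.34) and Hoxb9 (-1.04) also had such a change. So did Gm13152 (-2.94), a zinc finger gene now named Zfp982 and picked after its values were seen. These are not a full count of factors outside the set. Hopx had 2.66, 2.70 and 3.44 RPKM in B6 and 6.90, 6.79 and 7.71 in 129 (1.05, SE 0.09, adjusted p = 5.02e-05). Prrx1, a homeobox factor of mesenchymal and fat precursors, rose by 0.49 from 40.6 to 48.9 RPKM in B6, Lhx8, a LIM homeobox factor linked to brown fat, by 0.54 and Meox2 by 0.59. Vax2 fell by 0.81, and the T-box factors Tbx5 and Tbx18 fell by 0.57 and 0.52. Tbx15, a T-box factor of subcutaneous and brown fat, did not pass (0.08, adjusted p = 0.174).

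The basic helix-loop-helix inhibitors went in opposite directions. Id3 had 103, 108 and 104 RPKM in B6 and 165, 179 and 171 in 129 (0.70, SE 0.04, adjusted p = 1.36e-05), and Id4 fell by 0.63 from 6.95 to 8.19 RPKM in B6. Epas1, the hypoxia-inducible factor HIF-2 alpha, had 20.8, 20.3 and 20.5 RPKM in B6 and 11.6, 12.5 and 11.8 in 129 (-0.73, SE 0.04). Neither Id3 nor Epas1 overlapped between strains. In the other families changes were small. Etv3, an ETS repressor, fell by 0.59 and the LIM-domain cofactor Ldb2 rose by 0.58. In all 13 of 77 coactivators and corepressors passed, or 16.9%, beside 36.3% of all genes tested. Of the 13, 6 were higher and 7 lower, or 4 lower without B6 replicate 1 or 129 replicate 1. The abundant factors Nfe2l1 (adjusted p = 0.405), Atf5 (adjusted p = 0.303) and Stat3 (adjusted p = 0.858) did not pass. Irf7, an interferon regulatory factor named after its values were seen, had 23.7 RPKM in B6 replicate 1 against 5.15 and 7.05 in the other B6 libraries and 4.48 to 4.89 in 129, and did not pass (-0.92, adjusted p = 0.138). Its log2 fold change was -0.32 without B6 replicate 1, and it passed without B6 replicate 2 (-1.32, adjusted p = 0.0297).

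Regulators that shape receptor signals had 20 of 84 members higher and 23 lower. Socs2, a suppressor of growth hormone signalling, had 7.53, 7.48 and 6.88 RPKM in B6 and 15.7, 15.4 and 15.3 in 129 (0.99, SE 0.05, adjusted p = 2.61e-06), alongside the rise of the growth hormone receptor Ghr. Dusp23, a dual specificity phosphatase, had 11, 10.96 and 11.6 RPKM in B6 and 4.03, 4.49 and 4.67 in 129 (-1.18, SE 0.06). The strains were separate in both genes. Rgs10, which shuts off G proteins, fell by 0.90, the receptor kinase Grk5 by 0.76 and Spry4, an inhibitor of growth factor signalling, by 0.73. Of the G protein subunits, Gnao1 and Gnai1, alpha subunits of the inhibitory class, fell by 0.89 and 0.59, and the gamma subunits Gng8 and Gng10 rose by 0.69 and 0.59. The most abundant gamma subunit, Gng5, stood at 166 to 177 RPKM in B6 and 164 to 175 in 129 and did not pass (adjusted p = 0.752).

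Enzymes of aldehyde, carbonyl and drug metabolism had 22 of 61 members higher and 22 lower. They include the steps that turn retinol into retinoic acid, a hormone-like regulator of fat cells. Adh1, which oxidises retinol and other alcohols, had 236, 244 and 254 RPKM in B6 and 55.95, 53.6 and 56.6 in 129 (-2.12, SE 0.04, adjusted p = 5.25e-08). Aldh1a2, a retinaldehyde dehydrogenase, had 3.55, 4.32 and 3.46 RPKM in B6 and 17.5, 15.1 and 17.5 in 129 (1.89, SE 0.08). Its relative Aldh1a3 had 3.45, 4.34 and 2.76 RPKM in B6 and 0.371, 0.310 and 0.174 in 129 (-1.80, SE 0.13). On this length-scaled measure the 2 retinaldehyde dehydrogenases had overlapping levels in B6, while in each 129 library Aldh1a2 was far above Aldh1a3. Gstt2, a glutathione transferase, rose by 2.08 from 2.90 to 3.07 RPKM in B6, Gsta3 fell by 0.82 and Car3, an abundant carbonic anhydrase of adipocytes, rose by 0.49 from 698 to 736 RPKM.

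Several genes named above share exonic bases with a neighbour on the other strand, namely Slc6a9, Slc7a10, Ano3, Ddr2, Tnfrsf12a, Stab1, Nrg4, Ace, Nid2, Id4 and Atf5. Libraries were made with a stranded kit, but whether counting used strand is not given in the sources used here, so their reads and those of the neighbour may be mixed. In these and all other genes, reads of 129 that differ from the reference may map less often, which was not measured.

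Outside these roles, ranks 11 to 30 of all genes by size held further large changes. Igfbp5, which binds insulin-like growth factors, had 9.04, 9.71 and 8.82 RPKM in B6 and 83.3, 70.5 and 75.1 in 129 (2.92, SE 0.07, adjusted p = 5.82e-08). Its neighbour on chromosome 1, Igfbp2, went the other way, with 7.75, 7.33 and 8.20 RPKM in B6 and 1.14, 1.67 and 1.94 in 129 (-1.77, SE 0.11). In mm9 Igfbp2 lies at 72871054 to 72899045 and Igfbp5 at 72904639 to 72921439. The Wnt antagonist Sfrp4 rose by 2.40, the laminin chain Lamb3 by 2.50, the oxysterol hydroxylase Cyp7b1 by 2.46, the carbonyl reductase Cbr3 by 2.23 and the chemokine Ccl9 by 2.16. Falls included the myosin Myo7a (-1.95), the collagen-binding proteoglycan Fmod (-1.80), the protein kinase Prkd1 (-1.65), the sialyltransferase St3gal6 (-1.63) and Ogdhl (-1.54).

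Some of the falls rested in part on B6 replicate 1. The interferon-inducible genes Slfn8 and Slfn2, growth regulators of the Schlafen family, had 6.53 and 7.22 RPKM in that library, against 1.90 to 3.33 in the other B6 libraries and 0.105 to 0.608 in 129. Without B6 replicate 1 the log2 fold change of Slfn8 went from -1.84 to -1.41, that of Slfn2 from -1.71 to -1.33, that of the TRIM family gene Trim30a from -1.58 to -1.10 and that of Ifit1 from -1.59 to -0.86. All 4 still passed there. With each 129 replicate left out in turn, Ifit1 did not pass, at -1.62 to -1.56. Schlafen and TRIM genes have close copies, so the split of their reads is uncertain.

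A small set of genes was almost confined to one strain. Taking 0.1 RPKM or less in all libraries of one strain and 1 RPKM or more in all libraries of the other, 10 genes were seen in 129 and 8 in B6. Gbp2b, an interferon-inducible GTPase, and Psca and Mill1, cell surface proteins, had no read in any B6 library and 3.60 to 4.32, 1.18 to 1.48 and 1.33 to 2.08 RPKM in 129. Tpsab1, the mast cell tryptase, had 0, 0 and 2 reads in B6 and 1472, 2072 and 1548 in 129. Of the 8 other mast cell markers, Tpsb2, Fcer1a and Ms4a2 were at 0 in all 6 libraries and the carboxypeptidase Cpa3 was lower in 129 (-0.32). The other 4 were too low to be tested. Cma1 had 0 to 0.0362 RPKM in B6 and 0.0392 to 0.156 in 129, Kit 0.179 to 0.316 and 0.0407 to 0.0649, Hdc 0.0436 to 0.146 and 0.0176 to 0.07007, and Mcpt4 was at 0 except for 0.0425 in 129 replicate 1. In B6, Unc5a, a netrin receptor, had 140, 110 and 109 reads, against 2, 8 and 7 in 129, and the aldo-keto reductase Akr1c18 had 44, 32 and 38 against 2, 2 and 2. Unc5a shares 34 exonic bases with Hk3, and Akr1c18, Gbp2b and Mill1 belong to families of close relatives.

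Some large changes also lay near each other in the genome. In 8 places at least 3 genes with called changes of at least 1 lay within 250 kb of the next such gene. Other tested genes could lie between them, as in the run with Col6a5, whose span held 7 tested genes. Whether such runs were more frequent than expected was not tested. On chromosome 15, from 74499511 to 74630398 (mm9), all 6 tested genes of the span passed, and Arc (1.05), Psca (1.24) and Ly6k (1.76) rose by at least 1. On chromosome 7 Trim12a, Trim30a and Trim30d all fell. In 5 places neighbours went in different directions, as on chromosome 9, where the fatty acid elongase Elovl4 (-1.34) and Sh3bgrl2 (-1.65) fell and Bckdhb, a subunit of branched-chain amino acid breakdown, rose from 79.9 to 95.6 RPKM in B6 to 184 to 198 in 129 (1.10). Further along chromosome 9, Col6a5, a collagen VI chain, rose from under 0.13 to 6.97 to 8.32 RPKM beside lower Ppm1m (-1.36) and Poc1a (-1.02). On chromosome 1 the signal regulator Rgs4 rose by 1.06, and Hsd17b7, an enzyme of sterol synthesis, fell by 1.10.

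Within the Hoxb cluster on chromosome 11 (96112974 to 96137907, mm9) the homeobox gene Hoxb9 (-1.04), the transcript Gm53 (-1.26) and the microRNA gene Mir196a-1 (-1.45) were all lower in 129. Mir196a-1 had 12.2, 15.4 and 10.6 RPKM in B6 and 4.53, 4.13 and 3.31 in 129. These values come from few reads, 32 in B6 replicate 1 and 11 in 129 replicate 1, over a short hairpin in poly(A) libraries, so they count longer transcripts across the hairpin and not the mature microRNA. The mature product, miR-196a-5p, known to repress Hox messages and to act in the browning of fat precursors, is shown from RefSeq (GRCm38.p6) with its seed, bases 2 to 8, in capitals.
mmu-miR-196a-5p: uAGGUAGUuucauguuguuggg

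**Figure D4:**
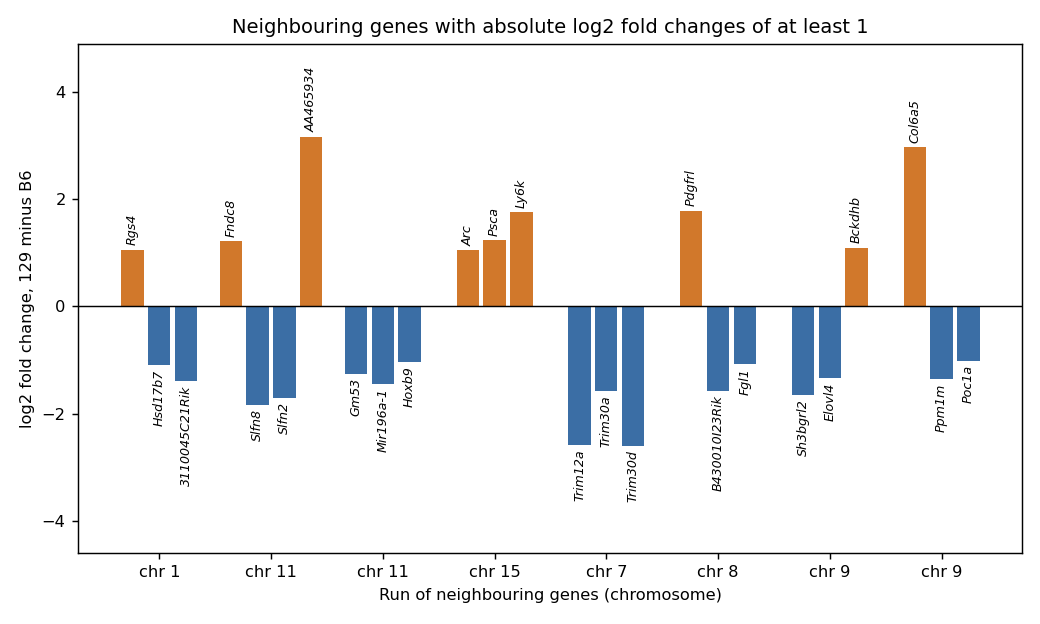
Log2 fold change (129 minus B6) of genes in 8 runs of at least 3 neighbouring genes with called changes of at least 1, one group of bars per run and its chromosome under it. All bars of the runs with Hoxb9 and Trim30d point down and all of the run with Psca point up, while the other 5 runs hold both directions.

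Per chromosome, the share of tested genes that passed was 29.2% on chromosome 19 and 41.0% on chromosomes 8 and 9, the lowest and highest among autosomes, and 30.4% on the X chromosome. Changes of at least 1 were found in 4.3% of genes on chromosome 1, which carries Igfbp5, Igfbp2, Scg2, Steap3 and Dusp23, and in 0.928% on chromosome 19.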

How the data were processed

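Poly(A) RNA was sequenced from 3 B6 and 3 129 libraries. The deposited values are RPKM, made by the authors with the aligner STAR on genome build mm9, per the submitters' processing notes. The sources used here name no read counter, annotation or version. RPKM times exon length summed to 1000000 in each library and had steps of 1 read, from which depth and reads were recovered, with 100% of non-zero rows whole within 0.1 read.

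The 11451 genes that reached RPKM 1 in 3 or more of these libraries were fitted on log2(RPKM + 1) with limma 3.58.1 (R 4.3.3), 1 mean per strain and a mean-variance trend, with two-sided p-values and Benjamini-Hochberg adjustment over all of them. The procedure was tested on simulated data. Genes were sorted into 32 lists by symbol, with synonyms from RefSeq. From each list up to 4 rises and 4 falls (adjusted p under 0.05, absolute log2 fold change of at least 0.5, no overlap between strains) and the 2 most abundant members could be named, as could ranks 11 to 30 of all rises and falls and runs of neighbours within 250 kb. Predicted genes were left out except in runs of neighbours and for Gm13152. Genes named as markers, as nearly absent from one strain, or beside such a gene were chosen after their values were seen. The comparison, lists and rules were chosen with earlier results of these data known. Alternatives covered the pseudocount, the filter, rescaling, voom on recovered reads, weights, a block and single libraries. Some genes that the rule gave are not reported here.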

Additional observations from a re-analysis of the deposited data

How the results depend on the processing

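The 4162 genes that passed became 4058 to 5458 under the alternatives that kept all 6 libraries and the filter, 3131 with a filter of RPKM 5 and 4481 with no filter. Leaving out 1 library gave 3246 to 4523 in all, 1393 to 1898 higher, 1785 to 2625 lower and 273 to 295 with a change of at least 1 on the log2 scale, up or down. That last count, 278 with every library, was 440 with a pseudocount of 0.1, 479 with voom on recovered reads and 177 with a filter of RPKM 5. With the replicate block 4493 genes passed, 1905 higher and 2588 lower. Deviations of same-numbered libraries correlated at 0.0656, 0.142 and 0.234, and each library correlated best with its own number, a hint from the data and not the design. Since 1 pair was under 0.1, the numbers were not taken to pair the libraries. The alternatives were also tallied for 253 called genes, those of the naming rule together with ranks 1 to 10. Of these, 241 passed under each of the 15 alternatives that tested them, 12 did not in at least 1, and none changed sign. Apart from the most abundant members, these genes were picked for adjusted p and size in these same libraries. That choice favours passing again, so the tally does not describe called genes in general. Of 34 gene list counts of at least 10, 8 changed by over 1.5 times in an alternative other than the filter of RPKM 5, which removes members, and 13 more only under that filter. Depth limits genes near 1 RPKM, whose folds are understated.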

Other observations

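The 3 F1 libraries, offspring of the 2 strains, entered no test here, and their depth of 39686986 to 53410947 assigned reads was above that of every parental library. Their levels are given for some of the genes described above, chosen after the values were seen. Several genes that were high in 129 had F1 levels above all B6 libraries and nearer to B6 than to 129. Ngfr had 7.51, 7.95 and 7.33 RPKM in F1, Igfbp5 16.4, 17.8 and 18.2, Vtn 2.01, 2.38 and 1.93, Il1rn 4.25, 4.42 and 3.64 and Aldh1a2 5.41, 5.81 and 5.28. Il4ra, with 34.4, 36.3 and 35.1 RPKM, also lay just above the B6 libraries. Atp10d, with 12.4, 13.6 and 13.8 RPKM, and Aqp11, with 8.69, 7.22 and 7.85, lay between the strains, as did Slc1a5 with 534, 529 and 507 and Adh1 with 154, 137 and 140.2. Steap4, with 241, 243 and 247 RPKM, lay within the range of 129, and Tfrc, with 34.2, 31.1 and 36.98, around it. For Slc7a10, F1 had 8.35, 9.23 and 9.26 RPKM, overlapping B6.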
